A study of Mus musculus with 2 samples.

Results

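Expression of 45 cell cycle genes was examined in Th17 cells, the IL-17-producing helper T cells, with and without the long non-coding RNA lncRNA-GM. The genes were chosen by symbol, and all 45 were found among the 17002 genes of the deposited table. They comprised 23 genes of the G1/S transition and DNA replication, 18 genes of G2 and mitosis (G2/M) and 4 inhibitors of cyclin-dependent kinases (CDKs). The 2 libraries came from naive CD4+ T cells of the spleen of C57BL/6 mice, 1 wild type and 1 lncRNA-GM-/-, each kept for 3 days under Th17-polarising conditions. How lncRNA-GM was deleted, and the number and age of the mice behind each library, are not stated in the labels. No row was assigned to lncRNA-GM, which leaves the genotype label unchecked at the RNA level.

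A T cell that leaves quiescence enters the cell cycle through D-type cyclins with CDK4 and CDK6, which inactivate the retinoblastoma protein RB and release E2F transcription factors. E2F then drives genes of the E-type cyclins, of origin licensing, of the MCM helicase and of nucleotide supply, so that DNA is copied. Later the A- and B-type cyclins with CDK1 start mitosis, the spindle checkpoint holds the cell until chromosomes are attached, and the anaphase-promoting complex (APC/C) ends it. Naive T cells are known to divide rapidly in the days after activation.

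The groups also differ in promoter sequence, which played no part in choosing them, and 5 promoters are shown because they hold, or lack, the motifs known from each phase. E2F binds the E2F-like motif, and the DREAM and MuvB complexes bind the CHR (cell cycle genes homology region) of late cell cycle genes, often beside CCAAT boxes bound by NF-Y. Promoter windows from RefSeq (GRCm38.p6), holding the 250 bases before the start site and the first 50 from it, were found for 38 of the 45 genes, as 43 windows. The sequences run 5′ to 3′, and capitals mark matches on either strand. An E2F-like match is any of TTCCCGC and the variant TTGGCGC, along with TTCGCGC and the variant TTGCCGC. A CHR-like match is TTTGAA or its palindromic variant written TTCGAA, and the NF-Y box is CCAAT, where adjoining or overlapping matches form a single capital run.
Mcm3 promoter, chr1:20820263-20820562, minus strand: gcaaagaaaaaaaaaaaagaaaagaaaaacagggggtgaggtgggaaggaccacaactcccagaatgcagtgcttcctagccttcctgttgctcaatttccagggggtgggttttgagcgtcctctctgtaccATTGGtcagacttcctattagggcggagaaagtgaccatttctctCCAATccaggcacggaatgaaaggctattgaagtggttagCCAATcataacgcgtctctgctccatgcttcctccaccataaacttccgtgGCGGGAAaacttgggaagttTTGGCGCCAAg
Rrm2 promoter, chr12:24708004-24708303, plus strand: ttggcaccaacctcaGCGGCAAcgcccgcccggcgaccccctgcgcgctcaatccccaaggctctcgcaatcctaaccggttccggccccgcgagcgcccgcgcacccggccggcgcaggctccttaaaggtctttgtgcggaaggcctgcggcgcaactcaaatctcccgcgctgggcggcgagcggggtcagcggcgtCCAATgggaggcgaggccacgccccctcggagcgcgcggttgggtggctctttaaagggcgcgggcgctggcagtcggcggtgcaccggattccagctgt
Mcm2 promoter, chr6:88898731-88899030, minus strand: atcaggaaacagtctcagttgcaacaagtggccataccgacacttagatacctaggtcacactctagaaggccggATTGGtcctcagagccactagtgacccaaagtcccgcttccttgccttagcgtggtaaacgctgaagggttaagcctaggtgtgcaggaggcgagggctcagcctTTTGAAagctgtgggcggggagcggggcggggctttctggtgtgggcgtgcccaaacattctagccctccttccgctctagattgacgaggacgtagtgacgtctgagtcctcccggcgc
Bub1 promoter, chr2:127831810-127832109, minus strand: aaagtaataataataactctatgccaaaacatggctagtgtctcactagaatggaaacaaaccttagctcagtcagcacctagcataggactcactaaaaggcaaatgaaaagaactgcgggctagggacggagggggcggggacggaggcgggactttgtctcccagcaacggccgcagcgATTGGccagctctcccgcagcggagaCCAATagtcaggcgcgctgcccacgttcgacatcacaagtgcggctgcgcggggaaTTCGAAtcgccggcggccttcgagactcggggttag
Cdc20 promoter, chr4:118437294-118437593, minus strand: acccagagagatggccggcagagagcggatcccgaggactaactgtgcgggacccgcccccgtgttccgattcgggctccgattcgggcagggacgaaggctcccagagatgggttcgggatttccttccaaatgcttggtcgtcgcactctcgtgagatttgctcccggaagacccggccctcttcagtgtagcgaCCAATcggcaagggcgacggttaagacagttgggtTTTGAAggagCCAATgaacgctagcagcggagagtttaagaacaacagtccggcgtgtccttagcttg

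The 3 E2F-like matches of Mcm3, of which 2 overlap each other, lie after the start site, and the CHR-like match of Cdc20 lies between 2 CCAAT boxes. Among windows of G1/S and replication genes, 11 of 21 (52.4%) held an E2F-like match, against 9.57% of all 32851 promoter windows and 16.8% of windows of measured genes. Among G2/M windows, 12 of 16 (75.0%) held a CHR-like match, against 19.2% of all windows and 14.3% of windows of measured genes. In the same group 14 of 16 (87.5%) held CCAAT, against 37.4% of all windows and 38.1% of windows of measured genes. CHR-like matches were in 3 of 21 G1/S windows, and E2F-like matches in 3 of 16 G2/M windows. CCAAT was also frequent outside G2/M, in 13 of 21 G1/S windows (61.9%) and 3 of 6 windows of the CDK inhibitors. In the 6 windows of the CDK inhibitors there was 1 E2F-like match, in Cdkn2c, and no CHR-like match. A match is a description of the letters and was not tested as a binding site.

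The libraries differed little in depth. Levels were read as FPKM, fragments scaled to transcript length and to the mapped fragments of the library, and the depth that the deposited p-values imply was close to 19.4 M fragments for wild-type and 19.1 M for knockout cells. Of all genes, 10998 reached 1 FPKM in at least 1 library and are called measured. Each genotype had 1 library, so no spread between replicates could be estimated and no test was run. Each log2 ratio sets the knockout FPKM + 1 against the wild-type FPKM + 1. Each interval is the 95% exact (Clopper-Pearson) range that counting error allows for the recovered reads, without pseudocount. The intervals cover counting error only, not differences between cultures. Among T cell markers, Cd4 was at 174 and 213 FPKM, and the Th17 cytokine gene Il17f at 1056 and 382 FPKM, in the wild-type and knockout libraries. Of 10 Th17 markers, 8 had a ratio below 0, and 2, Irf4 (117 and 167 FPKM) and Ccr6 (3.35 and 4.85 FPKM), had a ratio above 0.

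Of the 45 cell cycle genes, 44 were measured, and 34 of these had a log2 ratio below 0, so that they were lower in the knockout library. Over all measured genes, 54.9% had a ratio below 0. The differences were small: 12 members were at least 1.2-fold lower and 1 was at least 1.2-fold higher, against 17.8% and 11.6% of all measured genes. A single member, Ccne2, was at least 1.5-fold lower (5.19% of all genes), a call lost at a pseudocount of 5, where its log2 ratio was −0.43, and 0 members were 1.5-fold or more higher (2.71%). The median log2 ratio of the members was −0.18, against −0.03 for all measured genes. Reads could be recovered for 43 members, and the counting interval lay below 0 for 28 of them, above 0 for 8 and across 0 for 7. The median member had 2810 wild-type reads, so that even small ratios, such as −0.09 for Mcm6, had intervals away from 0. The same count was not made over all measured genes, so these counts do not set the members apart from other genes.

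**Figure D1:**
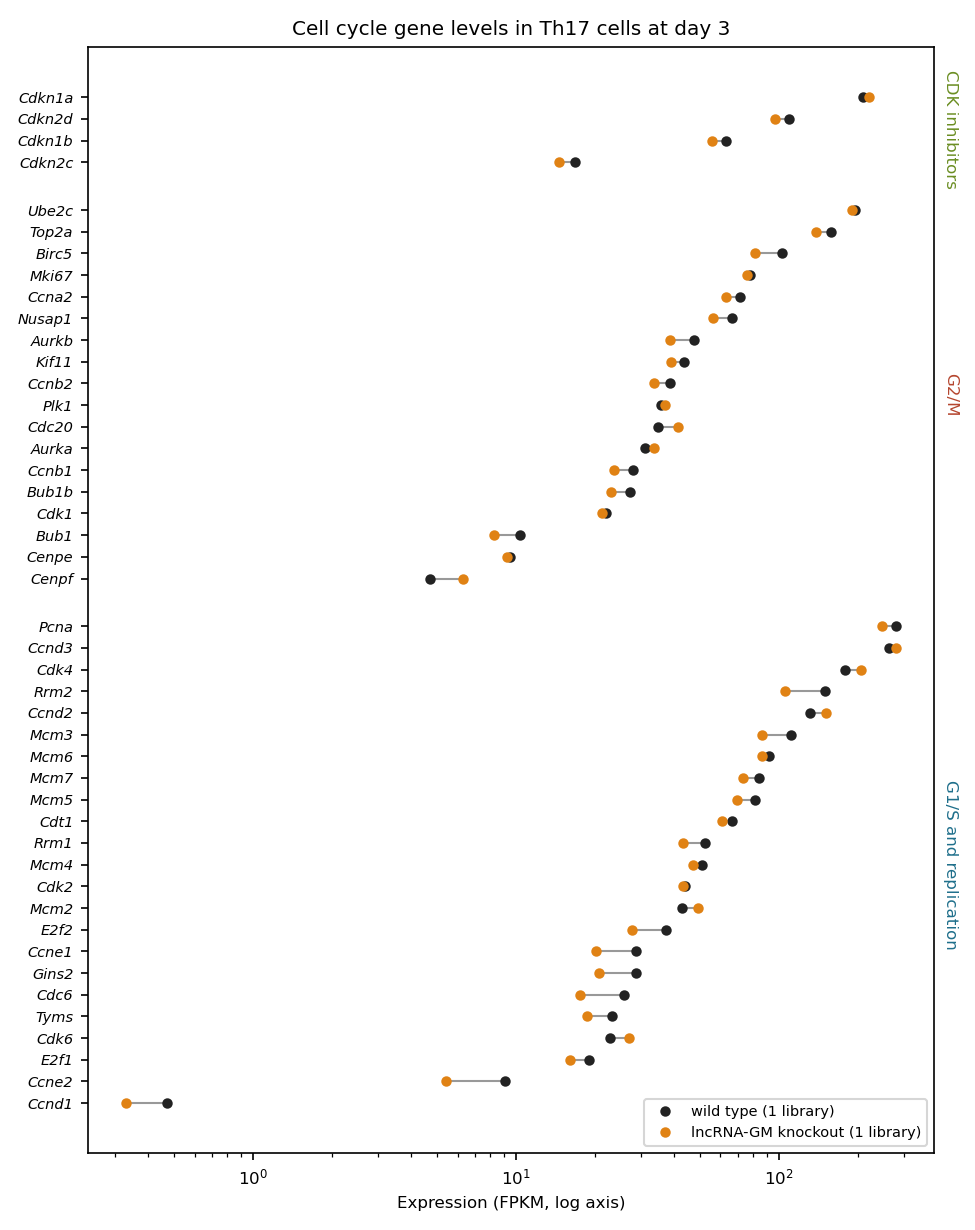
Expression of the 45 genes in FPKM (log axis), with 1 point for the wild-type library and 1 for the knockout library, joined by a line and ordered by wild-type level within each group. Levels ran from below 1 FPKM for Ccnd1 to 279 FPKM for Pcna in the wild type and Ccnd3 in the knockout, and for most genes the knockout point lies slightly to the left.

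The G1/S and replication genes held 9 of the 12 members that were at least 1.2-fold lower. Of 22 measured members, 17 had a ratio below 0 and 9 were at least 1.2-fold lower (background 17.8%). None was at least 1.2-fold higher (background 11.6%). The median log2 ratio of the group was −0.21. Its share of genes below 0 was like that of the G2/M genes, 14 of 18. Expressed D cyclin and CDK4/6 genes had ratios above 0, and E cyclin, E2F, licensing and nucleotide genes had ratios below 0. Mcm2 was the only other gene of the group above 0.

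The D-type cyclins and their kinases carry growth signals to RB. Ccnd3, which encodes cyclin D3, was the cyclin gene of the list with the highest level per length, at 262 FPKM in wild-type and 279 FPKM in knockout cells. Ccnd2 was at 132 and 152 FPKM, a log2 ratio of 0.20 (interval 0.17 to 0.24). Ccnd1 was at 0.47 and 0.33 FPKM, below the minimum in both libraries, so that nearly all cyclin D RNA was that of Ccnd2 and Ccnd3. Cdk4 was at 178 and 205 FPKM (log2 ratio 0.20, interval 0.14 to 0.26) and Cdk6 at 22.8 and 26.8 FPKM (log2 ratio 0.23, interval 0.18 to 0.29). All 4 expressed genes of this step were higher in the knockout library, by at most 1.17-fold, and none passed 1.2-fold. Exons of Cdk4 overlap those of Tspan31 on the opposite strand, at 76.2 and 62.3 FPKM, and exons of Ccnd3 overlap those of Bysl, at 12.2 and 14.8 FPKM. Strandedness was not given, and the part of these overlaps in the values was not tested.

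The E-type cyclins, which activate CDK2 at the entry into S phase, ran the other way. Ccne2 (GRCm38.p6 chromosome 4, bases 11190433 to 11204779) was at 9.07 FPKM in wild-type and 5.43 FPKM in knockout cells. It was 1.57-fold lower, with a log2 ratio of −0.65 (interval −0.97 to −0.51) on about 437 and 258 reads, and 4.29% of measured genes had a lower ratio. Ccne1 (chromosome 7, bases 38097984 to 38107490) was at 28.7 and 20.1 FPKM, 1.41-fold lower (log2 ratio −0.49, interval −0.65 to −0.38). Their kinase gene Cdk2 was nearly equal, at 43.9 and 43.2 FPKM, and its log2 ratio of −0.02 turned to 0.006 when ratios were centred on the median of all genes. Within a library, Ccnd2 stood at 4.59 times the FPKM of Ccne1 in the wild type and at 7.56 times in the knockout. Exons of Ccne2 overlap those of Ints8 on the opposite strand, at 13.3 and 11.4 FPKM.

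Both E2F activators of the list were lower in the knockout library. E2f2 was at 37.2 and 27.7 FPKM, 1.33-fold lower (log2 ratio −0.41, interval −0.51 to −0.34). E2f1 was at 18.9 and 16.0 FPKM, with a log2 ratio of −0.22 (interval −0.37 to −0.10), which did not reach 1.2-fold. Of the G1/S genes with a promoter window, an E2F-like match was found for 10 of 14 with a ratio below 0 and for 0 of 4 with a ratio above 0 (Ccnd3, Cdk4, Cdk6 and Mcm2). Ccne1, E2f1, Pcna and Tyms are among the lower genes without these letters in the window. Cdk2, nearly equal with a log2 ratio of −0.02, is among the 10. The same split was not made over all measured genes, and a link between match and direction was not tested.

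Origins of replication are licensed by CDC6 and CDT1, which load the MCM2 to MCM7 ring onto DNA. Cdc6 (chromosome 11, bases 98907709 to 98923942) was at 25.9 FPKM in wild-type and 17.6 FPKM in knockout cells, 1.45-fold lower (log2 ratio −0.53, interval −0.72 to −0.40). Cdt1 was nearer to equal, at 66.6 and 61.1 FPKM (log2 ratio −0.12). Gins2, a subunit of the GINS complex that joins the ring to form the active helicase, was at 28.6 and 20.7 FPKM, a log2 ratio of −0.45 without an interval. Its exons overlap those of Gse1 on the opposite strand over much of the annotated transcript, and Gse1 was at 12.4 and 15.0 FPKM.

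The 6 MCM genes encode subunits that sit in the ring in equal number, yet their ratios ran from −0.37 to 0.20. Mcm3 was at 112 FPKM in wild-type and 86.3 FPKM in knockout cells, 1.29-fold lower (interval −0.43 to −0.32). Mcm5, Mcm7, Mcm4 and Mcm6 had log2 ratios of −0.23, −0.20, −0.10 and −0.09, each with an interval below 0. Exons of Mcm7 overlap those of Cops6, at 61.95 and 75.17 FPKM, and of Ap4m1, at 8.74 and 7.36 FPKM, both on the opposite strand. Mcm2, which in wild-type cells had the lowest level of the 6, was at 42.7 and 49.3 FPKM and alone had a ratio above 0 (interval 0.13 to 0.28). Mcm3 therefore stood at 2.62 times the FPKM of Mcm2 in the wild type and at 1.75 times in the knockout. The number of E2F-like matches did not order these ratios: Mcm3 has 3 and Mcm2 none in the promoters printed above, but Mcm6 has 5.

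Genes of nucleotide supply were lower in the knockout library. Rrm2 (chromosome 12, bases 24708254 to 24714146), the regulated small subunit of ribonucleotide reductase, was at 150 and 105 FPKM. It was 1.42-fold lower (log2 ratio −0.50, interval −0.56 to −0.45) on about 6363 and 4404 reads. Annotated pseudogene copies were found for 9 members (Rrm2, Cdc6, Mcm6, Mcm7, Pcna, Ccnb1, Ccnd3, Cdk6 and Mki67), and how reads were split with them was not tested. Rrm1, the large subunit, was at 52.6 and 43.4 FPKM, 1.21-fold lower, and Tyms, which encodes thymidylate synthase, at 23.2 and 18.6 FPKM, 1.23-fold lower. Both fell short of 1.2-fold at a pseudocount of 5 (log2 ratio −0.25 each), and Rrm1 also with libraries rescaled to equal sums (−0.26). Pcna, the sliding clamp of the DNA polymerases and the most abundant member in the wild type, was at 279 and 246 FPKM (log2 ratio −0.18, interval −0.23 to −0.13).

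**Figure D2:**
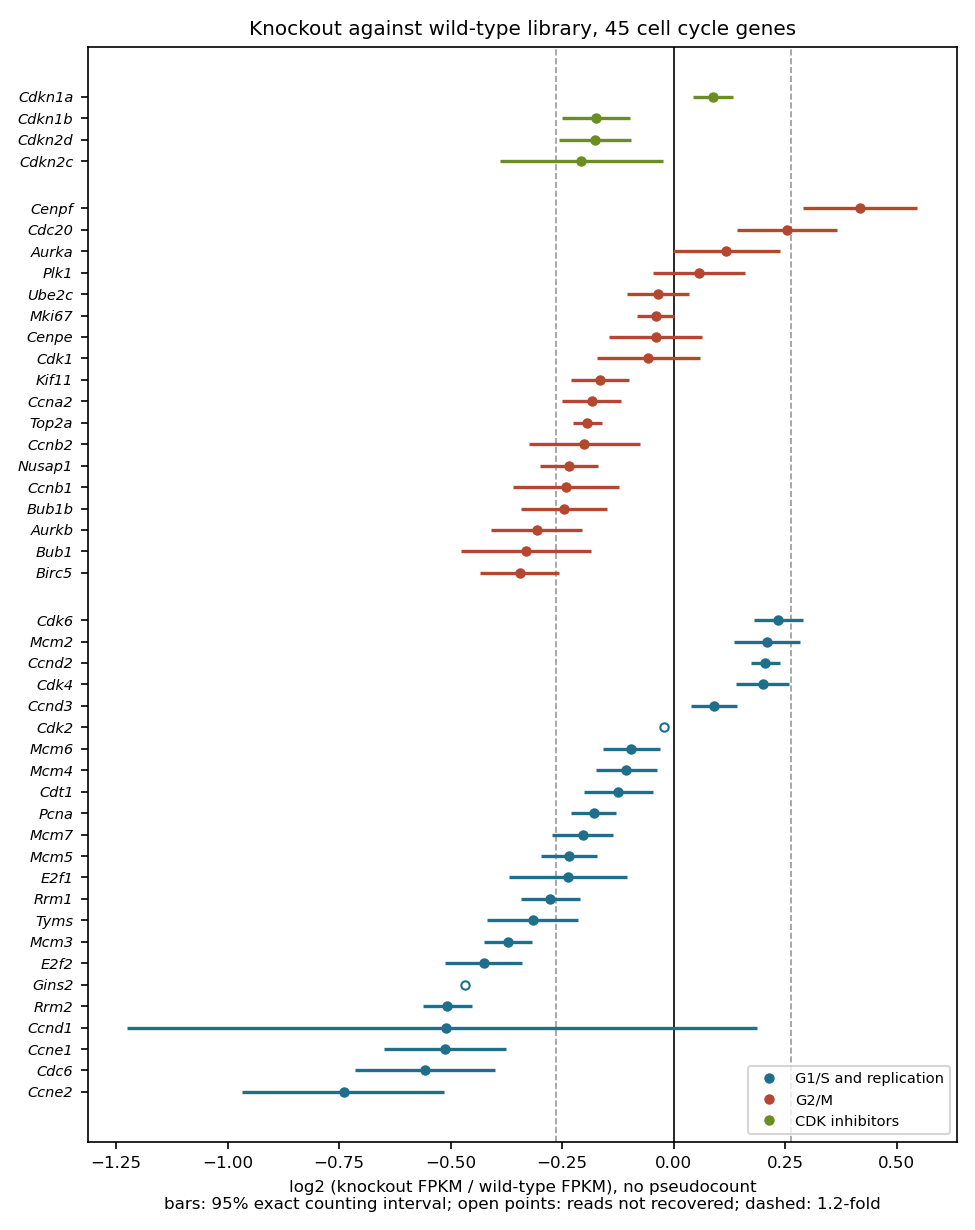
Log2 of knockout over wild-type FPKM, without pseudocount, for the 45 genes, with 95% exact counting intervals as bars, open points for the 2 genes without recovered reads, and dashed lines at 1.2-fold. The E cyclins, Cdc6 and Rrm2 lie farthest to the left among measured genes, Cenpf farthest to the right, and the bar of Ccnd1 is wide because it rests on about 44 and 31 reads.

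Genes of G2 and mitosis had a median close to that of the G1/S genes, with fewer of them at least 1.2-fold lower. Of 18 members, 14 had a ratio below 0, 3 were at least 1.2-fold lower and 1 (Cenpf) passed 1.2-fold upward. The 3 lower genes are close to the share of all genes, 17.8%. Their number was 6 when ratios were centred on reference genes and 2 at a pseudocount of 5, where Bub1 was at −0.21. The median was −0.17, which lay 0.04 above that of the G1/S genes, a difference that was not tested. The proliferation marker Mki67 was nearly equal, at 77.7 FPKM in wild-type and 75.6 FPKM in knockout cells (interval −0.08 to 0.001).

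Of the cyclins and kinase that start mitosis, Ccna2, Ccnb1 and Ccnb2 were at 71.3, 27.9 and 38.4 FPKM in the wild type and at 62.8, 23.6 and 33.5 FPKM in the knockout. Their log2 ratios were −0.18, −0.23 and −0.20, with all 3 intervals below 0. Cdk1, their partner, was at 22.1 and 21.3 FPKM, and its interval (−0.17 to 0.06) held 0. Exons of Ccna2 overlap those of Exosc9 on the opposite strand, at 26.4 and 22.3 FPKM. Top2a, the topoisomerase that untangles sister chromatids, was at 158 and 139 FPKM (log2 ratio −0.19, interval −0.23 to −0.16).

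The 3 lower genes of the group were Birc5, Aurkb and Bub1. Birc5 encodes survivin and Aurkb the Aurora B kinase, both of the chromosomal passenger complex that corrects wrong attachments. Birc5 was at 103 and 81.0 FPKM (log2 ratio −0.34, interval −0.43 to −0.26), and Aurkb at 47.6 and 38.5 FPKM (log2 ratio −0.30, interval −0.41 to −0.20). Bub1, a kinase of the spindle checkpoint, was at 10.4 and 8.26 FPKM (log2 ratio −0.30, interval −0.48 to −0.19), and its partner Bub1b was at 27.3 and 23.0 FPKM (log2 ratio −0.24). Nusap1 and Kif11, which bundle and push apart spindle microtubules, had log2 ratios of −0.23 and −0.16. Exons of Nusap1 overlap those of Oip5 on the opposite strand, at 16.7 and 11.3 FPKM.

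A few mitotic genes were equal or higher in the knockout library. Cenpf (chromosome 1, bases 189640606 to 189688107), which encodes a large kinetochore protein, was at 4.73 FPKM in wild-type and 6.32 FPKM in knockout cells. It was 1.28-fold higher (log2 ratio 0.35, interval 0.29 to 0.55) on about 874 and 1149 reads. With a pseudocount of 5 its log2 ratio was 0.22, under 1.2-fold. Cdc20, which activates APC/C once the checkpoint is satisfied, was at 34.8 and 41.5 FPKM (log2 ratio 0.25, interval 0.14 to 0.37). Cdc20 thus stood at 1.28 times the FPKM of the checkpoint gene Bub1b in the wild type and at 1.80 times in the knockout. Its exons overlap those of Elovl1 on the opposite strand, at 57.7 and 57.5 FPKM.

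The mitotic kinases Aurka and Plk1 had log2 ratios of 0.11 and 0.06, with intervals that held 0, and Plk1 turned to −0.003 when ratios were centred on reference genes. Ube2c, the ubiquitin-conjugating enzyme of APC/C and the most abundant gene of the group, was at 194 and 190 FPKM (interval −0.10 to 0.03). Cenpe, a kinetochore motor, was at 9.48 and 9.22 FPKM (interval −0.14 to 0.06). All 4 genes with a ratio above 0, Cenpf, Cdc20, Aurka and Plk1, had a CHR-like match in the promoter window. So did 8 of 12 genes with a ratio below 0, and a link with direction was not tested.

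**Figure D3:**
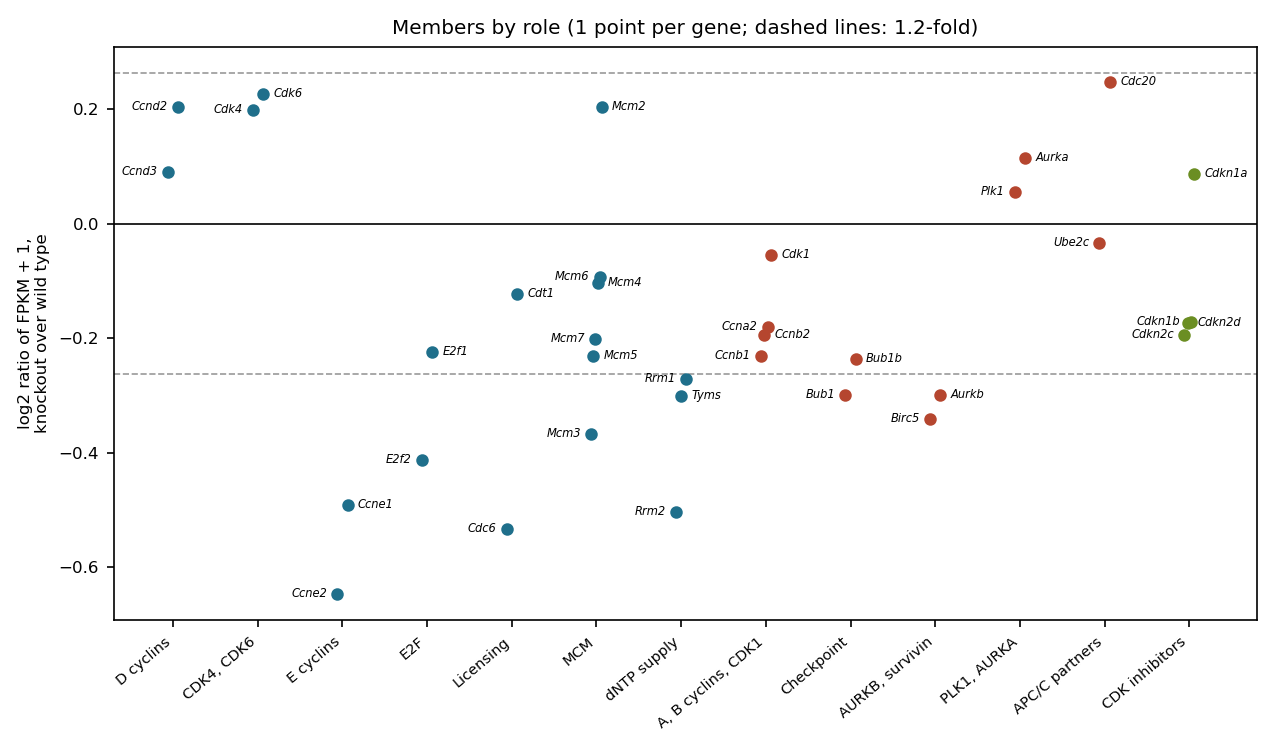
Log2 of knockout over wild-type FPKM + 1 for 35 members placed by role, with 1 point per gene, blue for G1/S and replication, red for G2/M and green for CDK inhibitors, and dashed lines at 1.2-fold. D cyclins with their kinases lie above 0, the E cyclins, E2F, licensing and nucleotide genes below 0, and the MCM column spans both sides.

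None of the 4 CDK inhibitors differed 1.2-fold. Cdkn1a, which encodes p21, a p53 target that blocks CDK2, was the most abundant, at 208 FPKM in wild-type and 221 FPKM in knockout cells (log2 ratio 0.09, interval 0.04 to 0.13). Cdkn1b encodes p27, a quiescence factor known to be induced by Foxo proteins, and was at 63.0 and 55.8 FPKM (log2 ratio −0.17, interval −0.25 to −0.10). Cdkn2d, the p19 inhibitor of CDK4 and CDK6, was at 109 and 96.6 FPKM (log2 ratio −0.17, interval −0.26 to −0.10). Cdkn2c, the p18 inhibitor of the same kinases, was at 16.8 and 14.6 FPKM (log2 ratio −0.19, interval −0.39 to −0.02). The inhibitors as a group thus had a median of −0.17, like that of the G2/M genes.

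Genes of the same pathways outside the 45 were examined through lists. Of 44 other replication genes, all measured, 40 had a ratio below 0, 18 were at least 1.2-fold lower (background 17.8%) and none was at least 1.2-fold higher (background 11.6%), with a median of −0.22. Pole2, a subunit of DNA polymerase epsilon, was the lowest, at 17.0 FPKM in wild-type and 9.07 FPKM in knockout cells (log2 ratio −0.83, interval −1.13 to −0.68). Pold1, the catalytic subunit of DNA polymerase delta, was at 29.7 and 19.5 FPKM (log2 ratio −0.58), whereas Pold2 of the same enzyme and the origin recognition gene Orc3 had log2 ratios of 0.07 and 0.08. Of 49 other mitotic genes, 37 had a ratio below 0, 11 were at least 1.2-fold lower (background 17.8%) and 2 were at least 1.2-fold higher (background 11.6%), with a median of −0.19. The lower share is near that background. The kinase gene Melk and the condensin gene Ncapg were lowest, with log2 ratios of −0.45 and −0.43. Pttg1, which encodes securin, and the kinesin gene Kif18b were highest, at 0.42 and 0.27.

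**Figure D4:**
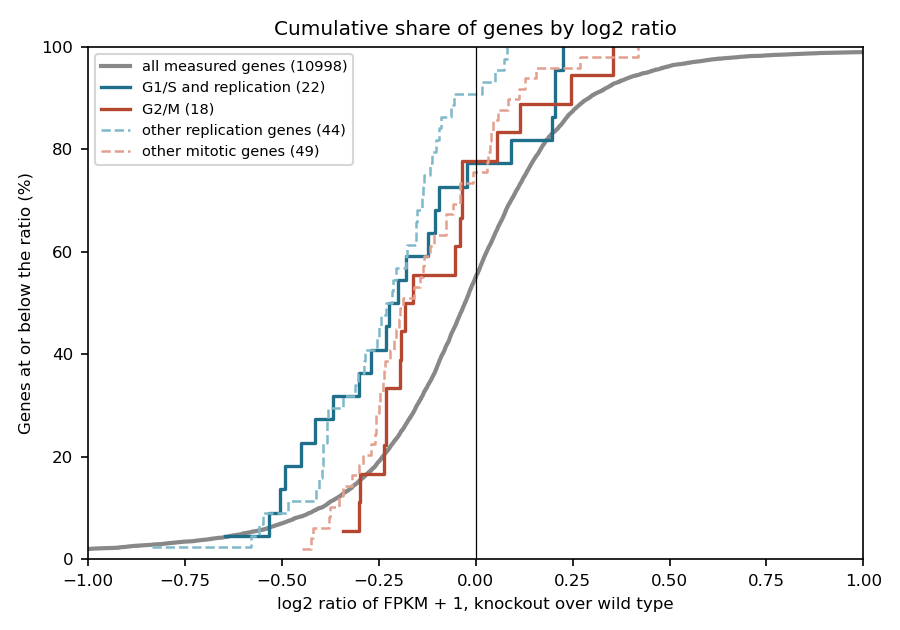
Cumulative share of genes (percent) at or below each log2 ratio (knockout against wild type, FPKM + 1), drawn between −1 and 1, for all 10998 measured genes, the G1/S and G2/M members and the lists of other replication and mitotic genes. The curve of the other replication genes lies to the left of all genes over most of its range and reaches 100% at a log2 ratio of 0.08.

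Upstream regulators were mixed. Of 23 G1 and RB-E2F regulators, 16 had a ratio below 0, 5 were at least 1.2-fold lower and 2 were at least 1.2-fold higher, both near the shares over all measured genes (17.8% and 11.6%), with a median of −0.13. Rbl2, which encodes p130, the RB relative that holds E2F genes off in quiescent cells, was at 29.7 FPKM in wild-type and 48.7 FPKM in knockout cells (log2 ratio 0.69, interval 0.64 to 0.78). Myc, which drives growth and cell cycle entry, was at 115 and 147 FPKM (log2 ratio 0.36), and Lin9 of the MuvB core and the E2F partner gene Tfdp2 had log2 ratios of −0.48 and −0.38. Of 18 measured genes among 20 other brakes and p53 targets, 4 were at least 1.2-fold lower and 3 at least 1.2-fold higher (background 17.8% and 11.6%), with a median of −0.05. Gadd45b and Btg1 had log2 ratios of −0.65 and −0.34, and Trp53 and Gadd45g of 0.27 and 0.55.

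Markers of other cells moved in the same comparison. All 7 measured of 9 CD8 T and NK cell markers were at least 1.2-fold lower (background 17.8%). The list had a sum of 1712 FPKM in wild-type and 583 FPKM in knockout cells. Most of each sum was the granzyme gene Gzma, at 1254 and 358 FPKM. Cd8a was at 98.1 and 55.7 FPKM, and Cd8b1 at 212 and 126 FPKM. The 8 pan-T and CD4 markers found in the table summed to 2991 and 3345 FPKM, and 2 were at least 1.2-fold higher (background 11.6%). The 10 macrophage and dendritic cell markers summed to 149 and 186 FPKM. Of the 6 measured, 5 were at least 1.2-fold higher (background 11.6%), 4 of them at least 1.5-fold (background 2.71%). Of these, Cd74 was highest in ratio, at 15.4 and 39.4 FPKM (2.45-fold), while Cst3 was at 112 and 109 FPKM. The 6 B cell markers summed to 5.20 and 9.16 FPKM, and 3 of the 4 measured were at least 1.2-fold higher (background 11.6%). Of 10 Th17 markers, 7 were at least 1.2-fold lower (background 17.8%) and 2, Irf4 and Ccr6, at least 1.2-fold higher (background 11.6%). Of 12 reference genes, 2 (Actb and Gapdh) were at least 1.2-fold higher (background 11.6%) and none was lower to that degree (background 17.8%). Their median was 0.06. No marker of these lists was listed at 0 in either library. Their part in the cell cycle values was not tested, and in bulk RNA fewer dividing cells and less RNA of these genes per cell cannot be told apart.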

How the data were processed

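RNA of 2 cultures was sequenced on the Illumina HiSeq platform (per the labels). The submitters' processing notes name GRCm38.p6, Bowtie2 and RSEM. The sources used here give neither strandedness nor filters. In the table that the authors deposited, the expression columns were read as FPKM because they sum to 517664 (wild type) and 514343 (knockout). The authors' deposited log2 ratio was recomputed within 0.001 for all 17002 genes with values of 0 set to 0.01. The FDR column that the authors deposited is a score above 1 for 443 genes and was not used.

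The authors' deposited p-value compares 1 library with 1 library. For genes listed at 0 in a library it gave whole reads within 0.05 for 47 of 47 genes under a Poisson comparison of 2 libraries with 50.4% of reads in the wild type. The same formula was solved for each member, and reads were kept where the transcript length they imply lay within 2-fold of annotated lengths (GENCODE M21). This left out Cdk2 and Gins2. Depth came from 119 genes with 1 transcript of at least 1500 bases (quartiles 18.3 and 19.7 M fragments). Only the solving of reads and the coverage of the intervals were tested on simulated data. The counts were drawn as Poisson, the model of the formula, so the fit of that model was not tested there.

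Measured genes had at least 1 FPKM in 1 library, the pseudocount was 1, and folds of 1.2 and 1.5 were used. All members are named, and of each other pathway list the 2 lowest and 2 highest ratios with at least 5 FPKM. The members and lists were chosen with earlier results of these data known. BLAST 2.17.0 (at least 95% identity over 50% of a transcript) found annotated pseudogene copies of 9 members (Ccnb1, Ccnd3, Cdc6, Cdk6, Mcm6, Mcm7, Mki67, Pcna and Rrm2), whose values are uncertain to that extent. Exons of 11 members overlap another gene of the table. Python 3.11.15, numpy 2.4.6, pandas 2.3.3 and scipy 1.17.1 were used.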

Additional observations from a re-analysis of the deposited data

How the results depend on the processing

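The medians of all 3 groups stayed below 0 under every pseudocount, minimum, scaling and summary tried. They ran from −0.27 to −0.18 for G1/S genes, from −0.23 to −0.10 for G2/M genes, from −0.23 to −0.11 for CDK inhibitors and from −0.24 to −0.15 for all members. The number of G1/S genes at least 1.2-fold lower ran from 7 to 11. Centring on reference genes gave 6 lower G2/M genes in place of 3, and a pseudocount of 5 gave 2. A pseudocount of 5 gave 0 higher G2/M genes, and 0 higher members in all, in place of 1, and centring on the median of all genes gave 2 in each case. Rescaling to equal sums turned no member's direction, and either centring turned 1 (Cdk2 or Plk1). No paired analysis was possible because each genotype has 1 library, so no replicate could be left out. Depth limits Ccnd1, whose interval ran from −1.23 to 0.19. It also limits small differences such as that of Cdk1, whose interval ran from −0.17 to 0.06.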
